A study of Mus musculus with 12 samples.

Results

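The genes that build long-chain polyunsaturated fatty acids (PUFAs) were followed across 12 arrays. The cells were 3T3-L1, mouse preadipocytes that turn into lipid-laden adipocytes under a hormone cocktail. The genes were chosen by name, with earlier results of these data known. They were the desaturases Fads1, Fads2 and Fads3 and the elongases Elovl5, Elovl2 and Elovl4. These are 6 of the 19480 genes that the array annotation named. Counts of members or listed genes set beside all clusters are therefore descriptions and no independent support. Each member was represented by 1 transcript cluster, and 0 had a further cluster. The study compared 4 treatments given from the start of differentiation to day 8, with 3 arrays each from cells of passage 6, 7 and 8. Control cells received the vehicles ethanol and DMSO. For the second group 50 µM alpha-linolenic acid (ALA) was added, its medium holding 2% albumin stripped of fatty acids. The third group received 5 µM of an inhibitor of the delta-6-desaturase, and the fourth both agents. All groups shared the 3T3-L1 line, the differentiation cocktail and the later insulin medium. The labels mention albumin for the ALA medium only. If the other media had none, ALA and its carrier cannot be told apart. The labels give no name for the inhibitor. All cultures belong to 1 cell line, so p-values measure the spread between its cultures.

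ALA comes from plants and is the omega-3 fatty acid that mammals cannot make. The delta-6-desaturase, encoded by Fads2, places the first new double bond in it, Elovl5 lengthens the product, and the delta-5-desaturase, encoded by Fads1, places the next double bond, which gives eicosapentaenoic acid. Elovl2 lengthens the chain further on the way to docosahexaenoic acid, and Elovl4 builds the very long chains found in retina, skin and brain. The same enzymes serve the omega-6 series. Transcription of Fads1, Fads2 and Elovl5 is known to be driven by SREBP-1 and held down by dietary PUFAs, and the inhibitor acts on the enzyme that Fads2 encodes. Fads3 is a close relative whose established substrates are sphingoid bases. The 3 desaturase genes lie side by side on mouse chromosome 19, with Fads2 between Fads3 and Fads1 among protein-coding genes.

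The upstream sequences of Fads2 and Elovl5 are shown because these members were lower with ALA in every passage and lie on different chromosomes. They hold the 250 bases before the start site, from RefSeq on build GRCm38.p6. Capitals mark matches on either strand to CCAAT (or its reverse complement ATTGG), to the GC box GGGCGG and to the E box CACGTG.
Fads2, chr19:10101504-10101753, minus strand: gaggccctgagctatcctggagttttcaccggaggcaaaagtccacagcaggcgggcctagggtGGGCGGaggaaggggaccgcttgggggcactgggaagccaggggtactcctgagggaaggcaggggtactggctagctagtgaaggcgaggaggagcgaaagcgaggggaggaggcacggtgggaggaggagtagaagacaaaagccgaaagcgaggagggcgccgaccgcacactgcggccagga
Elovl5, chr9:77917115-77917364, plus strand: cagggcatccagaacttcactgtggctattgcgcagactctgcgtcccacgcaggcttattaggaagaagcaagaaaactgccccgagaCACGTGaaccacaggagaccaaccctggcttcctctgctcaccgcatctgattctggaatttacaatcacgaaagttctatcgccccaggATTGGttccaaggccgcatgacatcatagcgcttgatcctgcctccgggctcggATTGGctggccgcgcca

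Elovl5 held 2 CCAAT matches, starting 71 and 17 bases before the start site, and 1 E box. The Fads2 window held 1 GC box and 0 CCAAT matches. Of the members, 5 were in the promoter table (Fads1 was not). Fads3 was the other of these 5 genes with CCAAT matches, and CCAAT was found in 37.5% of all 27025 genes of the table. A sterol regulatory element written as TCACNCCAC matched 0 of the 5, against 1.23% of all genes. It matched only 1 of 13 measured genes of a cholesterol list, so its absence does not set the members apart. The measured genes of that list were synthesis enzymes and Stard4, without an uptake receptor. GC boxes were found in 4 of the 5 and in 35.4% of all genes, and these windows were rich in G and C, from 55.6% in Elovl5 to 87.2% in 1 of the 2 Elovl2 windows. A match is a run of letters in this window and says nothing of binding.

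The values are log2 signals made with RMA, a method that corrects background, normalizes arrays and summarises probes. Array medians lay between 6.14 and 6.27. One array, ALA of passage 7, stood apart, with correlations of 0.976 to 0.987 to the rest, against 0.989 to 0.994 among the other 11. Values without it are given beside the results. All 11 measured adipocyte markers had mean signals above the array median, and the averages over that list ranged from 11.50 to 11.70 in control, 11.54 to 11.72 with ALA, 11.31 to 11.59 with the inhibitor and 11.37 to 11.59 with both. Endothelial markers were dim, with 0 of 5 above that median, and 1 of 6 macrophage markers was above it. Above it too were 3 of 5 preadipocyte markers, 2 of 6 muscle markers and 3 of 5 osteoblast and chondrocyte markers. Among these, the preadipocyte marker Dlk1 had a signal above 98.4% of clusters and the chondrocyte marker Sox9 above 94.1%. In whole cultures, fewer cells of a kind and less RNA per cell cannot be told apart.

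Fads2, Fads1 and Elovl5 shared 1 pattern over the treatments. Signals were lowest with ALA, highest with the inhibitor alone, and intermediate in control and with both agents. Fads3 had the same treatments at its ends, within a much smaller range. Elovl2 was lowest in control, and Elovl4 varied too widely between cultures to order the treatments. The plot of members by treatment shows these patterns.

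**Figure D1:**
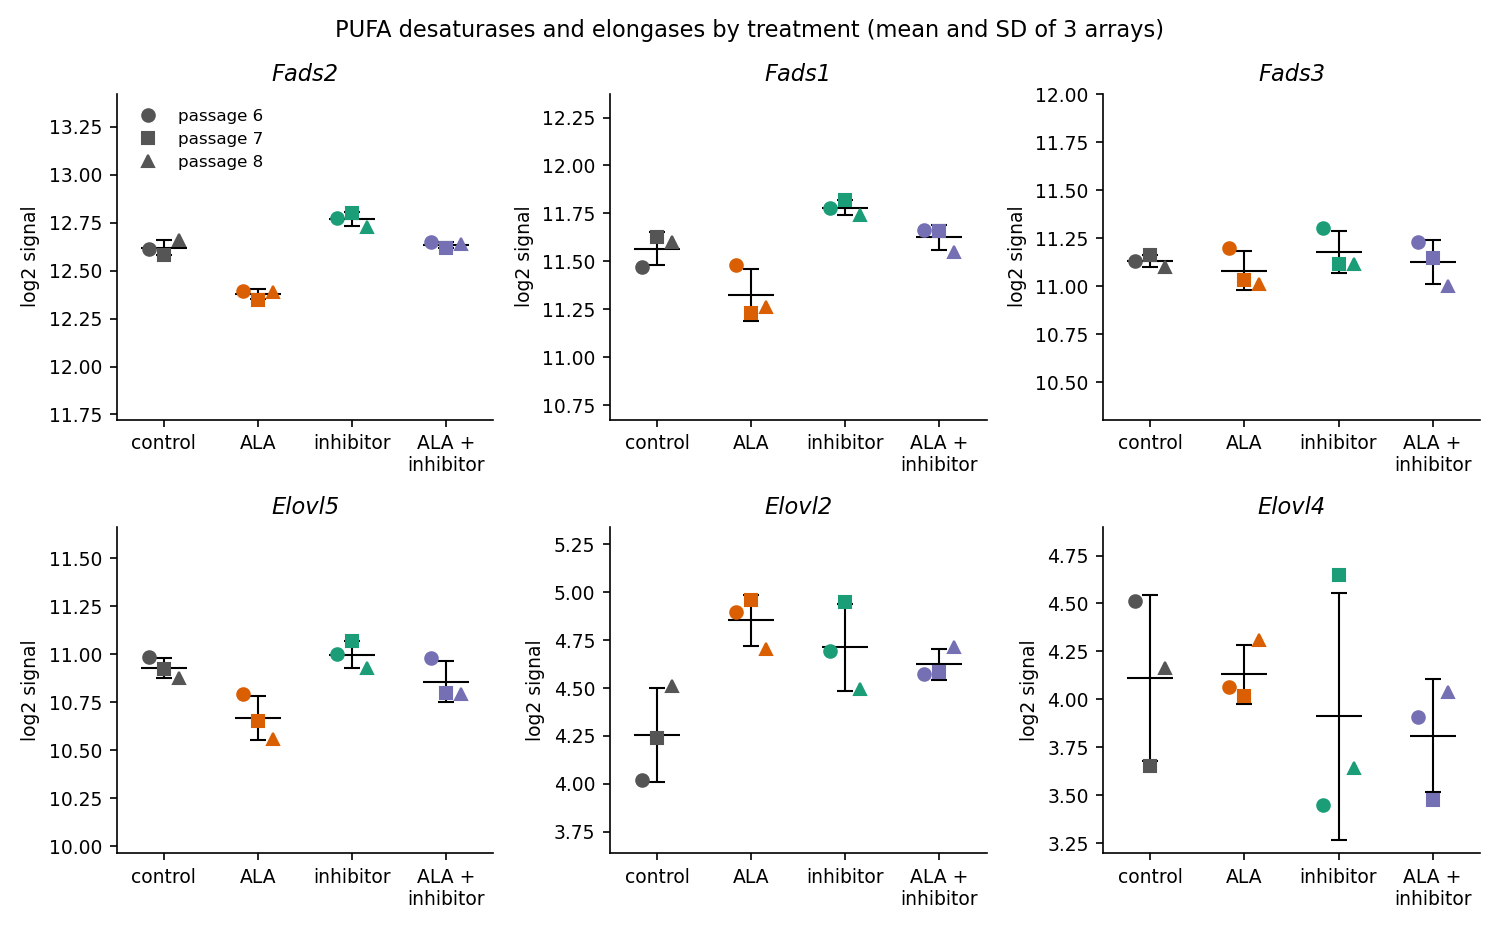
Log2 signal of the 6 members in each treatment, 1 symbol per array (circle passage 6, square passage 7, triangle passage 8), with the mean and SD of 3 arrays in black; every panel spans the same height in log2 units, so spread can be compared, while levels of different genes cannot. Fads2 forms 3 separate tiers, with ALA between 12.35 and 12.39, control and both agents between 12.58 and 12.66, and the inhibitor between 12.73 and 12.80.

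Fads2, the target of the inhibitor, measured 12.61, 12.58 and 12.66 in the control arrays of passage 6, 7 and 8. With ALA it measured 12.39, 12.35 and 12.39 in the same order. With the inhibitor the values were 12.77, 12.80 and 12.73, and with both agents 12.65, 12.62 and 12.64. Every ALA array was thus below every other array, and every inhibitor array above every other array. Control and the combination overlapped. Their means were 12.62 ± 0.04 and 12.63 ± 0.02 (SD, n = 3), with a log2 difference of 0.02 (95% interval -0.19 to 0.22). ALA alone had a mean of 12.38 ± 0.03 and the inhibitor alone one of 12.77 ± 0.04.

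Fads2 also had a very small spread between cultures of 1 treatment. Its pooled SD was 0.03, and 0.0317% of all clusters had a smaller one. Limma, which shares information on spread across clusters, raised its standard error for 3 arrays against 3 from 0.025 to 0.094. The limma tests on Fads2 below carry that larger error, while the exact permutation tests use the signals alone. The ALA difference from control was -0.24 (SE 0.09, 95% interval -0.45 to -0.04), a signal 1.18-fold higher in control. Given the inhibitor, ALA was associated with a difference of -0.13 (interval -0.34 to 0.07). The inhibitor difference was 0.15 (interval -0.06 to 0.35) without ALA and 0.26 (interval 0.06 to 0.46) with it. The limma adjusted p was 0.653 for the last of these and 0.998 or above for the others. Without the ALA array of passage 7 the differences that use it were -0.23 against control and 0.24 for both agents against ALA.

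Fads1, which encodes the delta-5-desaturase, measured 11.47, 11.63 and 11.60 in control in passage order. With ALA it measured 11.48, 11.23 and 11.26. With the inhibitor the signals were 11.78, 11.82 and 11.74, and with both agents 11.67, 11.66 and 11.55. The inhibitor arrays again lay above all the others. The ALA array of passage 6 was level with its control, so those groups overlapped, while in passages 7 and 8 the ALA arrays differed by -0.40 and -0.34. ALA differed from control by -0.24 (SE 0.11, interval -0.48 to -0.01), and by -0.37 with passage 6 left out of every group, over 1.5 times as much. Both agents differed from ALA by 0.30 (SE 0.11, interval 0.07 to 0.54) and from control by 0.06 (interval -0.18 to 0.29). The inhibitor differed from control by 0.21 (interval -0.02 to 0.45). Limma adjusted p-values were 0.653 for both agents against ALA and 0.998 or above for the others. Without the ALA array of passage 7 the ALA difference from control was -0.20 and that of both agents from ALA 0.25.

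Elovl5, the elongase that acts between these desaturases, measured 10.98, 10.92 and 10.88 in control and 10.79, 10.65 and 10.56 with ALA, in passage order. The inhibitor arrays measured 11.00, 11.07 and 10.93, and those with both agents 10.98, 10.80 and 10.79. All ALA arrays were below all control arrays, and just below those with both agents, by 0.003 at the nearest pair. Control, the inhibitor and the combination overlapped. ALA differed from control by -0.26 (SE 0.11, interval -0.50 to -0.02), and by -0.25 without the ALA array of passage 7. Both agents differed from ALA by 0.19 (interval -0.05 to 0.43). For the inhibitor without ALA the difference was 0.07 (interval -0.17 to 0.31), within the spread between cultures.

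Fads3 showed much smaller differences. Its group means were 11.13 ± 0.03 in control, 11.08 ± 0.10 with ALA, 11.18 ± 0.11 with the inhibitor and 11.13 ± 0.11 with both (SD, n = 3). All 4 groups overlapped. The ALA difference from control was -0.05 (interval -0.29 to 0.19) and the inhibitor difference 0.05 (interval -0.19 to 0.29). These intervals still hold differences as large as those of its neighbours Fads2 and Fads1, and the difference between the genes was not tested.

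Elovl2, the elongase of the later steps, had its lowest mean in control and its highest with ALA. Its signal was dim, above that of 27.2% of clusters. Control arrays measured 4.02, 4.24 and 4.51 and ALA arrays 4.90, 4.96 and 4.70 in passage order. With the inhibitor they measured 4.69, 4.95 and 4.49, and with both agents 4.57, 4.58 and 4.71. The control arrays were below every ALA array and every array with both agents, while the inhibitor group overlapped with control through passage 8. ALA differed from control by 0.60 (SE 0.15, interval 0.27 to 0.92), or 1.51-fold, with a limma adjusted p of 1.00, and by 0.54 without the ALA array of passage 7. The inhibitor differed from control by 0.46 (interval 0.13 to 0.78), and by 0.69 with passage 8 left out of every group. Adding ALA to the inhibitor gave -0.09 (interval -0.42 to 0.24). The interaction, which asks whether the inhibitor difference depended on ALA, was -0.69 (SE 0.21, interval -1.15 to -0.22, limma adjusted p = 1.00). By passage it was -0.997, -1.09 and 0.03, so it was carried by passages 6 and 7. The interaction and the differences from control all use the same control arrays.

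Elovl4, which extends very long chains, was the dimmest member, above 17.8% of clusters. Its arrays ranged from 3.45 to 4.65, and both of these extremes came from the inhibitor group. Its pooled SD was 0.42, larger than that of 97.5% of clusters. ALA differed from control by 0.02 (interval -0.61 to 0.65) and the inhibitor by -0.20 (interval -0.82 to 0.43). No direction can be read from intervals this wide.

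**Figure D2:**
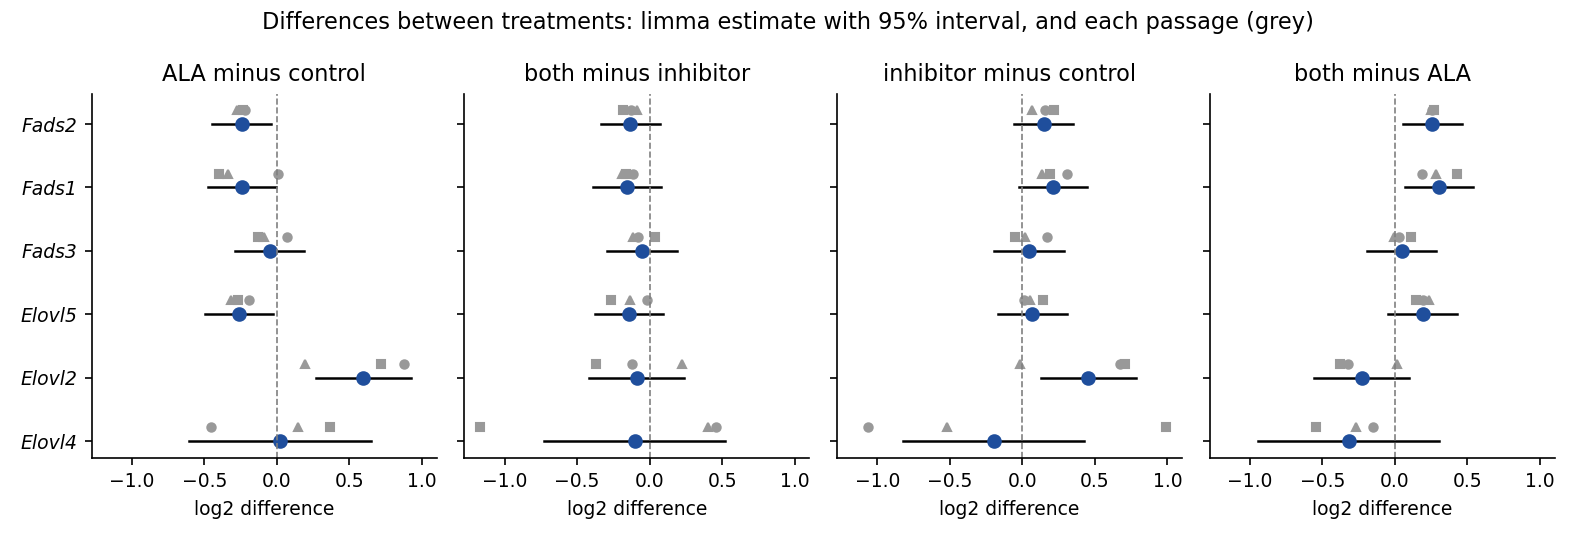
Log2 differences between treatments for the 6 members in 4 comparisons (blue point, limma estimate; black line, 95% interval over 12 arrays; grey symbols, the difference within passage 6, 7 and 8 as circle, square and triangle). For Fads2 the 3 passages lie close together, from -0.27 to -0.22 for ALA minus control and from 0.25 to 0.27 for both minus ALA, while for Elovl4 they run from -1.07 to 0.99 for inhibitor minus control.

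The series names 3 comparisons, and in each of them limma called 0 of the 22104 clusters, and 0 members, at an adjusted p under 0.05. The unadjusted p was under 0.05 for 753 clusters in ALA against control, for 955 in the inhibitor against control and for 1607 in both agents against ALA. Among them Fads1, Fads2 and Elovl5 were lower with ALA than in control, 3 of 6 members against 1.44% of all clusters in that direction. Elovl2 was the 1 member that was higher, against 1.97%, and the only one past the unadjusted 0.01 that the series design uses, against 0.303% of clusters. For the inhibitor against control, 1 member (Elovl2) was higher at an unadjusted p under 0.05, against 1.68% of clusters, and 0 were lower, against 2.64%. For both agents against ALA, Fads1 and Fads2 were higher at that level, 2 of 6 against 2.8%. The ALA arrays enter both the first and the third of these comparisons, so their opposite signs are not separate evidence. The control arrays likewise enter every comparison with control, so the higher Elovl2 values there are not separate evidence either. By groups that did not overlap, Fads2 and Elovl5 were lower with ALA than in control, against 2.91% of clusters, and Elovl2 was higher, against 3.86%. Fads1 and Fads2 were higher with the inhibitor than in control, against 5.88%. Fads1, Fads2 and Elovl5 were higher with both agents than with ALA, against 4.75%. Fads1 and Fads2 were lower with both agents than with the inhibitor, against 4.91%, and Elovl2 was higher with both agents than in control, against 4.81%.

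The layout also allowed each agent to be read over all 12 arrays, as the mean of its differences without and with the other agent, and those differences share no array. Of the members, 4 were lower with ALA in both (Fads1, Fads2, Fads3 and Elovl5), as were 26% of clusters. The same 4 were higher with the inhibitor in both, as were 28.6% of clusters. Averaged in this way, ALA differed by -0.19 for Fads2 (SE 0.07, interval -0.33 to -0.04), -0.20 for Fads1 (interval -0.36 to -0.03) and -0.20 for Elovl5 (interval -0.37 to -0.03). The inhibitor differed by 0.20 for Fads2 (SE 0.07, interval 0.06 to 0.35), 0.26 for Fads1 (interval 0.09 to 0.42) and 0.13 for Elovl5 (interval -0.04 to 0.30). The average was lower with ALA in 3 of 3 passages for 4 members, these 3 and Fads3, as for 12.3% of clusters. With the inhibitor it was higher in 3 of 3 for the same 4, as for 15.5% of clusters. Elovl2 averaged 0.25 higher with ALA (interval 0.02 to 0.48), the mean of 0.60 without the inhibitor and -0.09 with it. Without the ALA array of passage 7 the ALA averages were -0.18 for Fads2, -0.18 for Fads1 and -0.20 for Elovl5, and the inhibitor averages 0.20, 0.23 and 0.13.

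None of these averages passed the adjusted threshold in limma, where the adjusted p was 1.00 for ALA and 0.496 for the inhibitor in Fads1 and Fads2. Limma called 0 clusters in both, with 781 and 1936 at an unadjusted p under 0.05. At that level Fads1, Fads2 and Elovl5 were lower with ALA, against 1.43% of clusters, and Elovl2 higher, against 2.11%. At an unadjusted p under 0.01, Fads1 and Fads2 were higher with the inhibitor, 2 of 6 members against 0.651% of clusters, and 0 members passed for ALA. An exact two-sided permutation test of each gene, with labels exchanged within each level of the other agent (400 arrangements), was run for 12 averages with no adjustment. For Fads2 the exact test gave p = 0.005 for each agent, the smallest p that it can give. Fads1 had exact p = 0.01 for ALA and 0.005 for the inhibitor. Elovl5 had exact p = 0.01 and 0.02 in that order. At or under 0.05 there were thus 3 of 6 members lower with ALA, against 1.76% of clusters, and 3 higher with the inhibitor, against 4.56%. The exact p was 0.345 and 0.455 for Fads3, 0.125 and 0.475 for Elovl2, and 0.85 and 0.295 for Elovl4. For 3 arrays against 3 an exact test cannot go below 0.1. Among adipocyte markers 9 of 11 were lower with the inhibitor in this average, with a median of -0.10 and the widest value in Car3 (-1.11), and 5 of 5 preadipocyte markers were lower, with a median of -0.23. Their part in the values of the members was not tested.

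The interaction gave 0.11 for Fads2 (interval -0.18 to 0.40), 0.09 for Fads1 (interval -0.24 to 0.42) and 0.12 for Elovl5 (interval -0.21 to 0.45), with a limma adjusted p of 1.00 for each. No dependence of 1 agent on the other was thus detectable for these genes. The intervals allow one as large as the differences themselves. Leaving out arrays or passages moved the value by over 1.5 times for Fads1 (0.01 to 0.19) and Elovl5 (0.06 to 0.18).

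Across passages the widest differences among the bright members were those of Fads3 and Elovl5. Fads3 averaged 11.22 ± 0.07 in passage 6 and 11.06 ± 0.06 in passage 8 (SD, n = 4 treatments). The 2 sets of arrays lay 0.015 apart at the nearest pair. Its difference was -0.16 (interval -0.33 to 0.02, limma adjusted p = 0.393), and passage 8 was lower in 4 of 4 treatments. Elovl5 was also lower in 4 of 4, with a difference of -0.15 (interval -0.32 to 0.03, limma adjusted p = 0.421). Fads2 differed by -0.003 (interval -0.17 to 0.16) and Fads1 by -0.06 (interval -0.26 to 0.14). Limma called 0 members between passages 8 and 6 at an adjusted p under 0.05, against 1.91% of clusters. At an unadjusted p under 0.05 there were 0 members, against 14.6% of clusters. How many clusters show such a gap, or the same direction in 4 of 4 treatments, was not counted.

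Over the 12 arrays Fads1 followed Fads2 closely, with Pearson r = 0.92 and Spearman rho = 0.89. Among 9739 genes of at least median signal Fads1 was the third most like Fads2 and Elovl5 (r = 0.84) the seventeenth. Fads3 correlated less, at r = 0.40, and the dim Elovl2 at -0.23 and Elovl4 at -0.13. After the treatment means were removed, r was 0.33 between Fads2 and Fads1 and 0.29 between Fads2 and Elovl5, below the 0.55 of Fads2 with Elovl2 and the 0.58 with Elovl4. Across the 4 treatment means r was 0.99 for Fads1, 0.97 for Elovl5, -0.35 for Elovl2 and -0.63 for Elovl4. These correlations are descriptions over 12 arrays that share treatments and normalization.

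**Figure D3:**
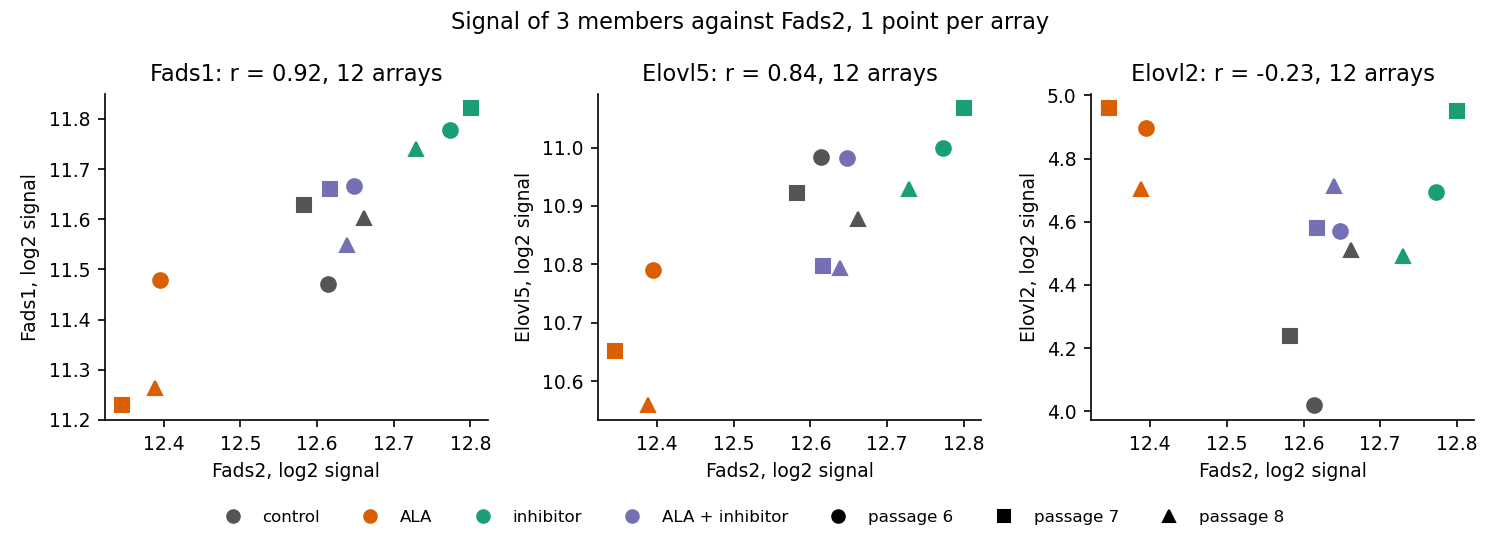
Log2 signal of Fads1, Elovl5 and Elovl2 (vertical axes) against that of Fads2 (horizontal axis), 1 point per array, coloured by treatment and shaped by passage. Fads1 and Elovl5 climb with Fads2 from the ALA arrays to the inhibitor arrays, while Elovl2 does not over the 12 arrays (r = -0.23), though within treatments its r with Fads2 was 0.55.

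Of the 6 genes most like Fads2, 4 were enzymes of cholesterol synthesis. After Sc5d (a late sterol desaturase, r = 0.95) came Fdft1 (squalene synthase, r = 0.93), Fads1, Ssbp2 (a single-stranded DNA binding protein, r = 0.91), Hsd17b7 (a sterol ketoreductase, r = 0.90) and Lss (lanosterol synthase, r = 0.89). For Fads1 they were Lss (r = 0.93), Fads2 and the clock-linked gene Ciart (r = 0.90). Those for Elovl5 were Sc5d (r = 0.94), the stress gene Trp53inp1 (r = 0.93) and Cyp51 (lanosterol demethylase, r = 0.92). In the cholesterol list, 17 of 17 measured genes were lower with ALA on average, as were 49.6% of clusters. Their median was -0.18, against 0.001 over all clusters. With the inhibitor 17 of 17 were higher, as were 46.7% of clusters, with a median of 0.23 against -0.01 over all clusters. Of the 17, 7 were higher at an unadjusted p under 0.01, against 0.651% of clusters, and 0 passed the adjusted threshold. The list includes Sc5d, Fdft1, Hsd17b7, Lss and Cyp51, picked above for likeness over the same arrays. The likeness and these counts are thus not separate observations. Of the 17 genes 13 were in the promoter table, and 13 of these 13 held a CCAAT match, as Elovl5 does and Fads2 does not. A GC box was found in 12 of the 13, as in Fads2 and not in Elovl5. Of 7 measured genes of SREBP and LXR control, 5 were lower with ALA and 5 higher with the inhibitor. Insig1, which retains the SREBP escort Scap, differed by -0.18 with ALA and 0.27 with the inhibitor, and Scap itself by -0.03 and 0.11. In the list of de novo lipogenesis, the making of new fatty acids, 10 of 11 genes were lower with ALA (median -0.15). With the inhibitor 10 of 11 were higher (median 0.05). That list includes Elovl6 and Scd1, which are counted again below among other elongases and desaturases.

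The enzymes that complete each elongation cycle had smaller medians than the 6 members, whose medians were -0.12 with ALA and 0.12 with the inhibitor. Of 7 measured partners, 5 were lower and 2 higher with ALA on average (median -0.03), 5 were higher and 2 lower with the inhibitor (median 0.04), and 0 reached an unadjusted p under 0.05. Tecr, the reductase of the last step, differed by -0.08 and -0.01, and the dehydratases Hacd2 by -0.05 and -0.01 and Hacd3 by -0.21 and 0.13. The Hacd3 values were as large as those of Elovl5 (-0.20 and 0.13), with a wider error (SE 0.13 against 0.08). The electron donors of the desaturases also went both ways, with 4 of 6 lower with ALA and 4 of 6 higher with the inhibitor. Cyb5r4, a cytochrome b5 reductase, differed by 0.43 with the inhibitor and the dim Cyb5r2 by -0.45. Both were past an unadjusted p of 0.05 and neither past the adjusted one.

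Elongases and desaturases outside the PUFA path gave 0 calls as well. Elovl6, which lengthens saturated and monounsaturated chains, differed by -0.20 with ALA and 0.14 with the inhibitor (SE 0.14), close to Elovl5 but with a wider error. Elovl1, which builds very long saturated chains, differed by -0.02 and 0.05 (SE 0.07). The stearoyl-CoA desaturase Scd1 differed by -0.15 with ALA (SE 0.07, past an unadjusted p of 0.05) and by 0.02 with the inhibitor. Scd3 differed by -0.25 and 0.02. Scd4, a dimmer relative of theirs, had the smallest p of the list, at 0.11 with ALA and -0.31 with the inhibitor (SE 0.11, past an unadjusted p of 0.05, limma adjusted p = 0.523), and at -0.49 for both agents against ALA. Of 4 other elongases 2 were lower with ALA and 3 higher with the inhibitor, and of 6 other desaturases 3 and 2.

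**Figure D4:**
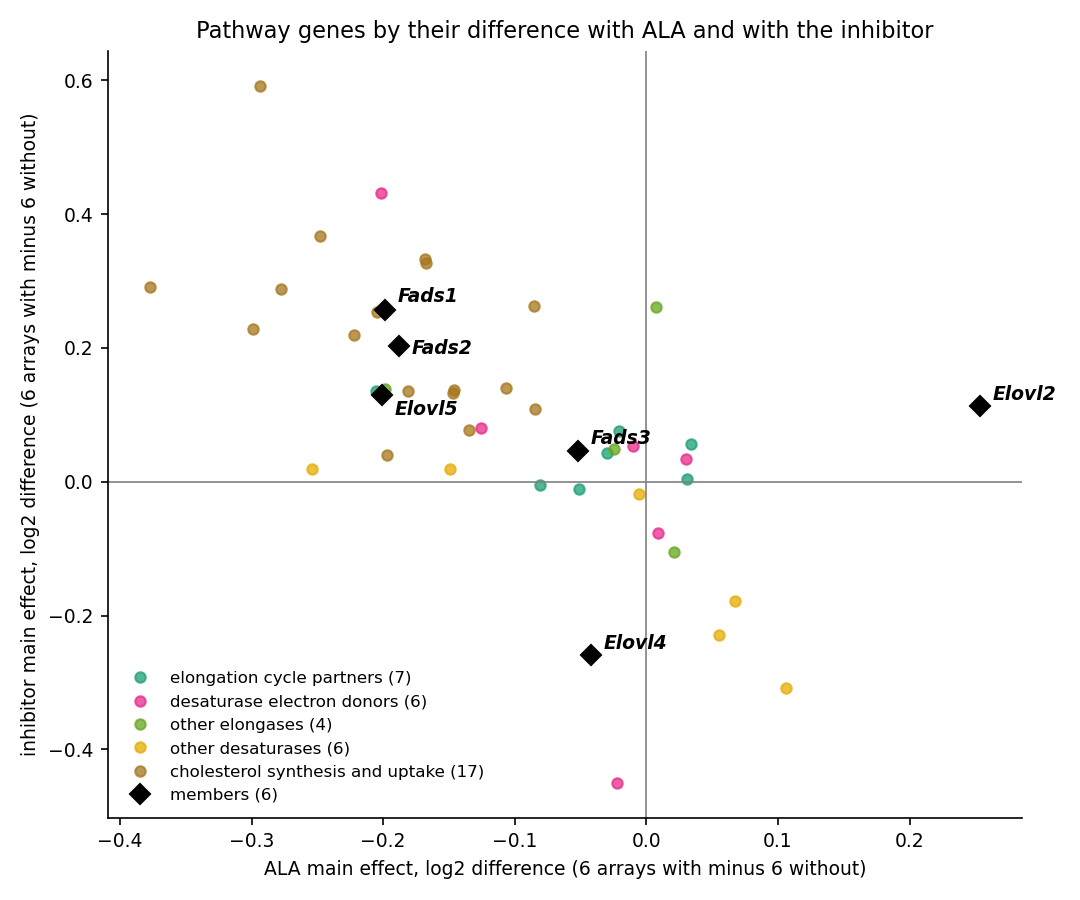
Average log2 difference with ALA (horizontal axis) and with the inhibitor (vertical axis) for the members (black diamonds) and the genes of 5 related lists (coloured points), each axis computed from the same 12 arrays. Fads1, Fads2 and Elovl5 sit in the upper left among the cholesterol genes, Fads3 near the origin, Elovl2 at the right and Elovl4 below.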

How the data were processed

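RNA of 12 cultures (4 treatments, passages 6, 7 and 8) was measured on whole-transcript arrays. The authors deposited log2 signals of 22104 transcript clusters, which per the submitters' processing notes came from RMA; software, version and library file are not given in the sources used here. All clusters entered the tests with no filter or further scaling. Gene symbols came from GEO's platform annotation (19509 clusters with 1 symbol, 2595 unnamed here). For each gene the cluster of highest mean was used. Arrays give no read depth, and their number limits precision.

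All 12 arrays were fitted together, each treatment with its own mean, in limma 3.58.1 (R 4.3.3), with eBayes and Benjamini-Hochberg adjustment over all clusters, two-sided, threshold 0.05. Limma was also run on simulated data with independent noise and no passage effect. At a simulated difference of 0.25 it called 0 of 50 genes, both in ALA against control and in the ALA average. At a simulated difference of 1 it called 42 of 50 and 49 of 50 in that order. The changed genes were drawn at random from all clusters, whose median SE for 3 arrays against 3 was 0.16. That SE was 0.09 for Fads2 and 0.11 for Fads1 and Elovl5, so these counts do not describe those genes. The passage comparison used treatment and passage as additive terms. Exact permutation tests were run per gene. Named genes were the 6 members, at most the 4 genes of smallest unadjusted p in either average per list, and the genes of highest correlation with Fads2, Fads1 and Elovl5. Alternatives covered passage as a block, array weights, an intensity trend, centring, quantile normalization, a filter on dim clusters, the 2 groups alone, and leaving out arrays or passages. The members and lists were chosen with earlier results of these data known. Some listed genes were not analysed here.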

Additional observations from a re-analysis of the deposited data

How the results depend on the processing

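Of the alternatives, passage as a block together with an intensity trend, added after seeing the data, created calls in limma. Fads2 passed at 0.20 for the inhibitor average (adjusted p = 0.0084) and at 0.26 for both agents against ALA (adjusted p = 0.036), where 31 clusters were called, and Fads1 at 0.26 for the inhibitor average (adjusted p = 0.021), where 142 clusters were called. The replicate block alone left Fads2 at 0.20 with an adjusted p of 0.268, and called 8 clusters and 0 members. After the treatment means were removed, each array was correlated with the arrays of other treatments. For 10 of 12 arrays the highest r was with an array of the same passage number. The 18 pair correlations of these deviations, between arrays of the same passage number, ran from -0.045 to 0.459, and 13 of them were over 0.1. Between passages 8 and 6 limma called 423 clusters at an adjusted p under 0.05. The main treatment fit nevertheless held no passage term, and the exact test exchanged labels across passages. Whether cultures of the same number were handled together is not stated in the sources used here, so the block stayed an alternative. Elovl5 kept its direction in 198 of 198 alternative values. Fads1 changed direction in 2 of 198 and Fads2 in 5, all in both agents against control or between passages, where their values lie near 0. Arrays centred on their medians gave 0.0033 for Fads2 between passages and 0.022 for Fads3 in both agents against control, which was 0.0010 with quantile normalization. Array weights gave 0.018 for the Fads3 interaction, 0.038 for Elovl4 in the inhibitor against control and -0.00098 for Elovl4 between passages, and quantile normalization gave -0.017 for Elovl4 in ALA against control. The cause was not tested.

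Leaving out single arrays or passages gave ranges that cross 0. For both agents against control they were -0.011 to 0.11 (Fads1), -0.0030 to 0.036 (Fads2) and -0.056 to 0.057 (Fads3). Between passages they were -0.12 to 0.0059 (Fads1), -0.021 to 0.019 (Fads2), -0.069 to 0.17 (Elovl2) and -0.17 to 0.26 (Elovl4). For the inhibitor against control they were -0.015 to 0.095 (Fads3) and -0.79 to 0.24 (Elovl4). For both agents against the inhibitor they were -0.10 to 0.010 (Fads3), -0.24 to 0.050 (Elovl2) and -0.39 to 0.43 (Elovl4), and for both against ALA -0.0056 to 0.11 (Fads3). For the interaction they were -0.084 to 0.068 (Fads3) and -0.64 to 0.58 (Elovl4). For ALA, Elovl4 ran from -0.21 to 0.26 against control and from -0.20 to 0.14 in the average. Leaving out the dimmest 30% of clusters removed Elovl2 and Elovl4, whose low signal limits what can be read.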

Other observations

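Of 9 measured eicosanoid enzymes, which release and convert PUFAs, 3 were higher and 6 lower with the inhibitor, with a median of -0.04. At an unadjusted p under 0.05, 2 were higher and 1 lower, and 0 passed the adjusted threshold in limma. Averaged over cultures without and with ALA, Pla2g4a, the phospholipase that frees arachidonic acid from membranes, was 0.66 higher with the inhibitor (SE 0.17), and Ptgs2, the inducible cyclooxygenase, 0.64 higher (SE 0.14). Both were past an unadjusted p of 0.01, as were 0.651% of clusters in that direction. With ALA they differed by -0.13 and -0.07. The lipoxygenase gene Alox5 was at -0.30 with the inhibitor (SE 0.12) and Alox15 at -0.27 (SE 0.13).

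Among genes that activate or esterify PUFAs, Acsl4, an acyl-CoA synthetase that prefers arachidonic acid, was 0.37 higher with the inhibitor (SE 0.14) and Agpat3, a lysophospholipid acyltransferase, at -0.21 (SE 0.08), both past an unadjusted p of 0.05. Of 10 measured genes 4 were higher and 6 lower. Of 9 peroxisomal genes that shorten very long PUFAs 6 were higher, among them the thiolase Acaa1a at 0.22 (SE 0.08), and 3 lower, among them the transporter Abcd2 at -0.54 (SE 0.21). The list of PPAR factors had 6 of 7 genes lower with the inhibitor, with the partner receptor Rxrg at -0.55 (SE 0.10) and Pparg at -0.13 (SE 0.07). None of these passed the adjusted threshold in limma.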
